A study of Homo sapiens with 7 samples.

Results

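RAB genes encode small GTPases of membrane traffic. They were taken as the protein-coding genes of the deposited count table whose symbol is RAB, a number and at most 1 letter and 1 further digit, which gave 63 genes out of 60675 gene identifiers. Another 8 rows with such symbols are pseudogenes and were left out. Of the 63 genes, 51 had enough counts to be tested among 16583 tested genes. All cells were of the breast cancer line MDA-MB-231, a human triple-negative line (low in estrogen receptor, progesterone receptor and HER2), grown in DMEM with serum. They received either control siRNA (siCTL, labelled DEPDC1 WT, 3 libraries) or siRNA against DEPDC1 (siDEPDC1, labelled DEPDC1 KD, 4 libraries) with the lipid reagent Lipofectamine RNAiMAX. The medium was changed after 8 h and RNA was collected 2 days after transfection for bulk RNA sequencing. A single cell line was used, and neither the siRNA sequence nor whether it was a single duplex or a pool is stated in the labels. Nothing in the labels says that libraries of a group were separate cultures; p-values then measure only the spread between these libraries, and that spread may be technical.

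A RAB protein cycles between a GDP-bound form, held in the cytosol by a GDP dissociation inhibitor (GDI), and a GTP-bound form on a membrane. Guanine exchange factors (GEFs) switch it on at a given organelle, GTPase activating proteins (GAPs) switch it off, and in between it recruits effectors such as tethers, coiled-coil proteins and motor adaptors. Each RAB is known for a step of traffic, from export out of the endoplasmic reticulum (ER) through the Golgi, endosomes and lysosomes to secretion. In epithelial and breast cancer cells RAB proteins are known for the recycling of integrins and growth factor receptors and for the release of proteases and vesicles.

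Totals ran from 7690583 to 15360409 counts per library. DEPDC1, the target, was at 114, 119 and 120.3 CPM (the usual scaling of counts to library size, here with TMM factors) in siCTL and at 15.3, 12.7, 13.4 and 11.9 CPM in siDEPDC1, which left 11.3% of the transcript. VIM, the vimentin gene, and CD44, both high in this line, were at 3491 to 3869 and 392 to 445 CPM, while the estrogen and progesterone receptor genes ESR1 and PGR stayed at or below 0.525 and 0.651 CPM and the HER2 gene ERBB2 at 61.7 to 70.6 CPM. Of 7 markers of other cell types, ALB was at 0 in 6 of 7 libraries and CD3E in 3. PTPRC was at 0.130 to 1.39 CPM. CD14, PECAM1 and EPCAM were present in every library, at 1.56 to 3.92, 9.78 to 14.2 and 10.1 to 12.5 CPM. The summed level of the 7 markers was 37.6 to 40.4 CPM in siCTL and 51.6 to 59.6 CPM in siDEPDC1. Without the collagen gene COL1A1 it was 23.2 to 28.2 and 24.4 to 27.5 CPM, ranges that overlap. COL1A1 itself was at 12.0 to 14.4 CPM in siCTL and 27.3 to 32.3 CPM in siDEPDC1. All libraries came from 1 cultured line, and whether any other cells were present was not tested. In bulk RNA, fewer cells of a type and less RNA per cell cannot be told apart.

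After DEPDC1 siRNA, 7 of the 51 tested RAB genes fell and 16 rose (quasi-likelihood test of edgeR, p under 0.05 after Benjamini-Hochberg adjustment over all tested genes). That is 13.7% lower, where 17.9% of all tested genes were lower, and 31.4% higher, where 16.5% of all tested genes were higher; whether these shares differ from the background was not tested. The median log2 fold change was 0.091 over the 51 RAB genes and 0.00094 over all tested genes. The falls were RAB17, RAB8B, RAB12, RAB27B, RAB31, RAB5A and RAB21. The rises were RAB42, RAB3B, RAB15, RAB40B, RAB3D, RAB38, RAB1B, RAB11A, RAB2B, RAB18, RAB1A, RAB32, RAB11B, RAB7A, RAB5B and RAB34. Most changes were small: the median absolute log2 fold change was 0.36 among the 23 called RAB genes and 0.37 among all called genes. RAB17 and RAB42 alone of the 51 RAB genes passed 2-fold. Of all tested genes, 435 (2.62%) were called and passed 2-fold.

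In 9 RAB genes every siDEPDC1 library lay below every siCTL library, where 19.6% of all tested genes did so, and in 14 every siDEPDC1 library lay above, where 17.7% did so. RAB9A and RAB22A belong to the first set although they did not pass the test. RAB34 and RAB5B passed the test with overlapping groups. Summed over all 63 genes, RAB transcripts took 2788 ± 49.7 CPM in siCTL and 2918 ± 42.8 CPM in siDEPDC1, with no overlap between the groups.

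**Figure D1:**
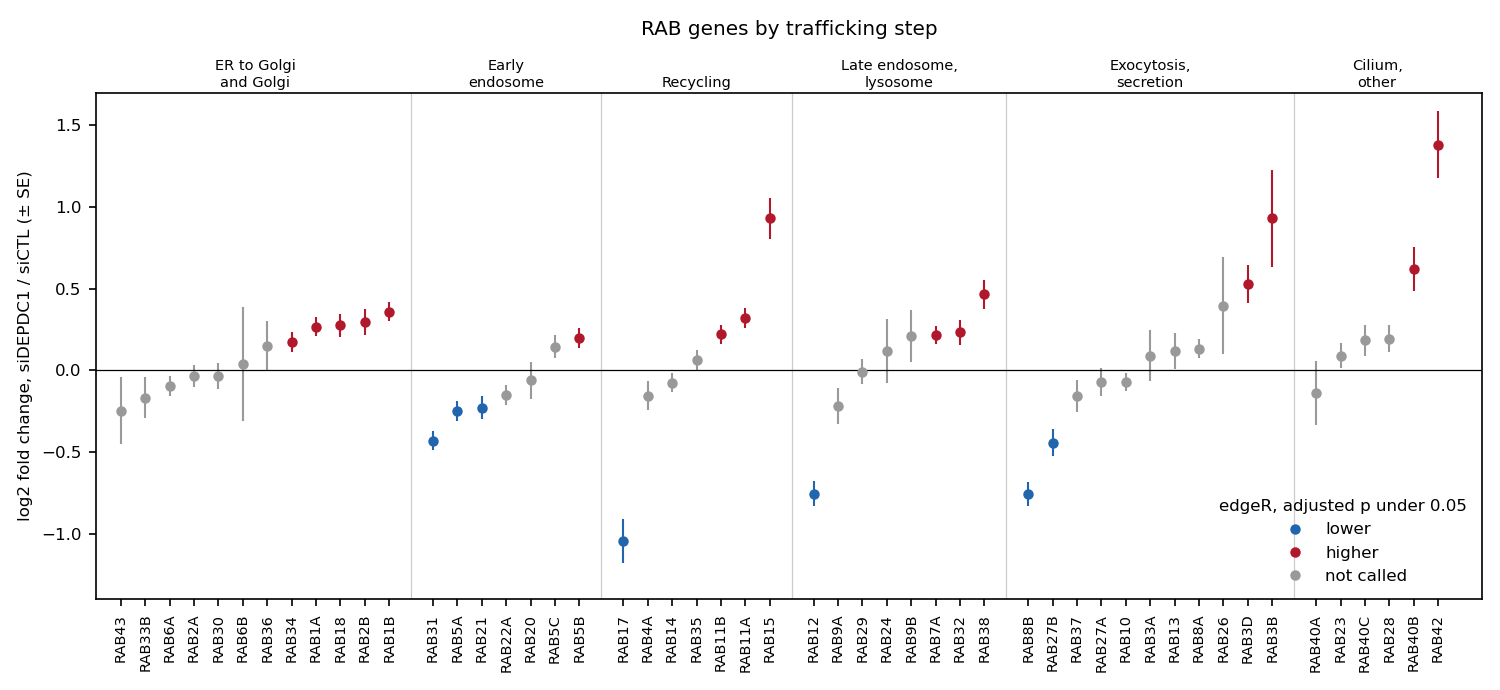
Log2 fold change (siDEPDC1 over siCTL, vertical axis) of each of the 51 tested RAB genes, ordered within 6 trafficking steps; bars are standard errors and colours show the edgeR call. Falls reach -1.04 (RAB17) and rises 1.38 (RAB42), and the ER and Golgi genes hold 5 rises and no fall.

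The called genes of the early secretory pathway all rose. Of 19 genes placed at the ER and Golgi, 12 were tested, 5 rose and none fell, and the other 7 did not pass the test (median log2 fold change 0.095). These are 41.7% higher and 0% lower of the tested genes, beside 16.5% and 17.9% of all genes tested; with 6 to 12 tested genes in each of the 6 steps, no step was tested against this background. RAB1A and RAB1B direct vesicles from the ER to the Golgi and are needed for Golgi structure. RAB1B, the RAB gene with the highest level per kilobase of exon, was at 284, 273 and 269.9 CPM after control siRNA and 320.1, 345, 371 and 379 CPM after DEPDC1 siRNA. All 4 siDEPDC1 libraries lay above the siCTL range, a rise from 276 ± 7.20 to 354 ± 26.9 CPM (log2 fold change 0.36 ± 0.058, SE, edgeR adjusted p = 7.9e-06). RAB1A rose 1.20-fold, from 135 ± 6.60 to 163 ± 7.86 CPM (edgeR adjusted p = 3.7e-04). RAB2B, a Golgi RAB of the RAB2 type, rose 1.23-fold and RAB18, which acts at the ER and on lipid droplets, 1.21-fold (edgeR adjusted p = 0.0037 and 0.0022).

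RAB34, a Golgi RAB with roles in cilium formation, had the smallest rise of the called genes, from 118 ± 7.50 to 133 ± 9.16 CPM (log2 fold change 0.18 ± 0.062, SE, edgeR adjusted p = 0.024). Its siDEPDC1 replicate 1, at 119.6 CPM, lay inside the siCTL range of 109 to 123 CPM. The call was lost without siCTL replicate 3, where the edgeR adjusted p was 0.16, and without siDEPDC1 replicate 2 or 3. RAB6A, which drives retrograde transport through the Golgi, and RAB2A, the paralog of RAB2B, were at -0.095 and -0.033 on the log2 scale and did not pass the test. RAB30, RAB33B, RAB36, RAB43 and RAB6B, the other tested Golgi RABs, ranged from -0.25 (RAB43) to 0.15 (RAB36), also short of the threshold. The summed level of the 19 genes was 844 ± 0.663 CPM in siCTL and 969 ± 18.7 CPM in siDEPDC1, with RAB1A and RAB1B giving most of the difference between the means.

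Reads of some of these genes may be shared. RAB1B overlaps on the opposite strand 2 genes without a symbol, ENSG00000245156 and ENSG00000254452, which were called higher at 0.29 and 0.38 on the log2 scale, and 757 bases of RAB1A exons lie opposite CEP68, which was at -0.071 and not called. The sources used here do not give the strand setting of the counting, so such reads cannot be separated. RAB43 shares 3956 of its 4991 exon bases with the read-through gene ISY1-RAB43, and its level may be incomplete. RAB6C and RAB6D are intronless copies of RAB6A. How reads that match several of them were counted is not given, so the levels of RAB6A, RAB6C and RAB6D may be incomplete too. Coding sequences of RAB1A and RAB1B are 76.4% identical, and the longest run they share is 16 bases.

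Among the 7 early endosome genes, all of them tested, 3 fell and 1 rose (median log2 fold change -0.15), or 42.9% lower and 14.3% higher. Over all tested genes 17.9% were lower and 16.5% higher, and this small step was not tested against them. Its median was the lowest of the 6 steps. RAB31, related to RAB22A and known for transport between the trans-Golgi network and endosomes, was at 101, 103 and 109 CPM after control siRNA and 77.0, 79.4, 74.2 and 77.7 CPM after DEPDC1 siRNA. The groups were far apart relative to their spread, from 104 ± 4.11 to 77.1 ± 2.15 CPM (log2 fold change -0.43 ± 0.059, SE, edgeR adjusted p = 3.7e-07). RAB5A, which drives the fusion of incoming vesicles with early endosomes, fell 1.19-fold, from 97.6 ± 3.94 to 82.3 ± 5.03 CPM (edgeR adjusted p = 0.0018). RAB21, known for the uptake of integrins, fell 1.17-fold (edgeR adjusted p = 0.011), but its call was lost without siDEPDC1 replicate 4, the lowest library at 46.2 CPM, where the edgeR adjusted p was 0.057.

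The 3 RAB5 genes, which share the early endosome function, did not move together. RAB5B rose from 111 ± 7.46 to 127 ± 6.73 CPM (log2 fold change 0.20 ± 0.06, SE, edgeR adjusted p = 0.0092), and RAB5C was at 0.15 on the log2 scale, short of the threshold (edgeR adjusted p = 0.1). The rise of RAB5B was lost without siCTL replicate 1 (edgeR adjusted p = 0.097). Per kilobase of exon, RAB5A went from 44.5 ± 0.261% to 37.5 ± 2.39% of the RAB5 transcripts, RAB5B from 28.97 ± 0.706% to 33.2 ± 1.74% and RAB5C from 26.6 ± 0.463% to 29.3 ± 1.43%. The RAB5 sum itself was 58.0 ± 2.67 CPM per kb in siCTL and 58.0 ± 1.11 in siDEPDC1, a sum that differed by less than its SD. RAB5C shares 794 of its 2761 exon bases with the protein-coding gene ENSG00000267261 on the same strand, so its level and the shares and sum built on it may be incomplete. RAB22A, which acts between early and recycling endosomes, was at -0.15 (edgeR adjusted p = 0.055) with every siDEPDC1 library, from 81.8 to 94.0 CPM, below every siCTL library, from 95.8 to 102 CPM. RAB20, a RAB of phagosomes and endosomes, was at -0.059 and did not pass the test.

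Recycling RABs, which return receptors to the cell surface, went in opposite directions. Of 9 genes, 7 were tested, 3 rose and 1 fell, or 42.9% and 14.3% (median log2 fold change 0.063). The shares over all tested genes were 16.5% higher and 17.9% lower. RAB17 (ENSG00000124839; GRCh38 chromosome 2, 237574322 to 237601614, minus strand), known for recycling and transcytosis in epithelial cells, was at 8.69, 9.12 and 8.86 CPM after control siRNA and 4.99, 4.05, 3.78 and 4.37 CPM after DEPDC1 siRNA. The groups did not overlap and the level dropped from 8.89 ± 0.217 to 4.30 ± 0.521 CPM, the largest fall of any RAB gene (log2 fold change -1.04 ± 0.14, SE, edgeR adjusted p = 1.6e-07). RAB15, a RAB of early and recycling endosomes, was at 4.94, 6.10 and 6.08 CPM after control siRNA and 9.88, 11.0, 11.3 and 11.4 CPM after DEPDC1 siRNA. It rose 1.91-fold, and its lowest siDEPDC1 library was above its highest siCTL library (log2 fold change 0.93 ± 0.12, SE, edgeR adjusted p = 2.8e-07). RAB17 and RAB15 were thus at similar low levels and changed by similar factors in opposite directions.

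RAB11A and RAB11B, the main RABs of the recycling endosome and far more abundant, rose 1.25-fold and 1.17-fold (edgeR adjusted p = 7.0e-05 and 0.0038). RAB11A went from 100.0 ± 3.33 to 125 ± 7.92 CPM and RAB11B from 106 ± 6.47 to 124 ± 5.53 CPM. RAB25, their epithelial relative, had 4 counts over the 7 libraries and was not tested. RAB4A and RAB35, which act in fast recycling, and RAB14, between the Golgi and endosomes, were at -0.15, 0.063 and -0.074 on the log2 scale, and none of these passed the test. RAB4A shares 648 of its 3310 exon bases with SPHAR on the same strand, so its level may be incomplete. RAB4B, with 66 counts in all, was not tested; 1076 and 1010 bases of its exons also belong to the read-through genes RAB4B-EGLN2 and MIA-RAB4B, so its count may be incomplete.

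In the late endosome, lysosome and lysosome-related group, 3 of 8 tested genes rose and 1 fell, or 37.5% and 12.5% (median log2 fold change 0.17). Among all tested genes 16.5% were higher and 17.9% lower. RAB12 (ENSG00000206418; GRCh38 chromosome 18, 8609437 to 8639382, plus strand), known for sending transferrin receptor to lysosomes and as a substrate of the kinase LRRK2, was at 40.1, 40.8 and 42.2 CPM after control siRNA and 25.5, 23.8, 25.4 and 22.9 CPM after DEPDC1 siRNA. All siDEPDC1 libraries were well below the siCTL libraries, a fall from 41.0 ± 1.09 to 24.4 ± 1.28 CPM (log2 fold change -0.75 ± 0.074, SE, edgeR adjusted p = 4.0e-10). ENSG00000266708, annotated on the opposite strand and sharing 185 exon bases with RAB12, also fell (log2 fold change -0.90), and without a stated strand setting their reads cannot be separated.

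RAB38 and RAB32, which serve melanosomes and other lysosome-related organelles, rose. RAB38 went from 15.2 ± 1.01 to 21.2 ± 1.20 CPM (log2 fold change 0.47 ± 0.089, SE, edgeR adjusted p = 8.8e-05) and RAB32 from 28.7 ± 1.04 to 34.0 ± 2.81 CPM (edgeR adjusted p = 0.018), with no overlap between groups in either gene. RAB32 missed the threshold when siCTL replicate 1 or 3, or siDEPDC1 replicate 3, was left out (edgeR adjusted p = 0.054, 0.060 and 0.069). RAB7A, the central RAB of late endosomes and the second highest RAB per kilobase, rose 1.16-fold, from 184 ± 5.00 to 214 ± 8.82 CPM (edgeR adjusted p = 0.002). RAB9A and RAB9B, of transport from endosomes back to the Golgi, were at -0.22 and 0.21, RAB24, linked to autophagy, at 0.12, and RAB29, a partner of LRRK2, at -0.0066 on the log2 scale. None of these passed the test, and the standard errors of RAB24 and RAB9B, 0.19 and 0.16, leave room for changes as large as those of RAB7A. RAB24 shares 926 of its 2065 exon bases with MXD3 on the same strand, so its low level is uncertain.

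Of 11 tested secretion and exocytosis RABs, 2 fell and 2 rose, and 7 did not pass the test (median log2 fold change 0.09). Both directions came to 18.2%, close to the 17.9% lower and 16.5% higher of all tested genes. RAB8B (ENSG00000166128; GRCh38 chromosome 15, 63189469 to 63267782, plus strand), of transport from the Golgi and recycling endosomes to the plasma membrane, was at 79.0, 77.3 and 88.6 CPM after control siRNA and 55.0, 47.4, 47.1 and 43.6 CPM after DEPDC1 siRNA. It fell from 81.7 ± 6.09 to 48.3 ± 4.80 CPM, with the smallest adjusted p of all RAB genes (log2 fold change -0.76 ± 0.071, SE, edgeR adjusted p = 1.4e-10). RAB27B, which docks secretory vesicles and exosome-forming endosomes at the plasma membrane, was at 40.1, 44.6 and 48.6 CPM after control siRNA and 37.4, 32.7, 29.6 and 30.6 CPM after DEPDC1 siRNA. The groups were separate but close, at 37.4 CPM for the highest siDEPDC1 library and 40.1 CPM for the lowest siCTL library (log2 fold change -0.44 ± 0.08, SE, edgeR adjusted p = 4.5e-05). An opposite-strand transcript sharing 341 exon bases with RAB27B, ENSG00000267112, also fell (log2 fold change -0.45). The paralog RAB27A was at -0.07 and did not pass the test (edgeR adjusted p = 0.56).

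RAB3 proteins control regulated exocytosis. RAB3D was at 7.96, 11.1 and 9.04 CPM after control siRNA and 12.8, 13.0, 13.2 and 15.4 CPM after DEPDC1 siRNA, a rise of 1.44-fold (log2 fold change 0.53 ± 0.12, SE, edgeR adjusted p = 4.8e-04). The siDEPDC1 libraries 1 to 3 lay close together, with replicate 4 above them, and none reached down to the siCTL range. ENSG00000267576, on the opposite strand over 906 exon bases of RAB3D, rose as well (log2 fold change 0.78). RAB3B was at only 0.958, 0.656 and 0.869 CPM after control siRNA and 1.86, 1.33, 1.69 and 1.51 CPM after DEPDC1 siRNA, or 100 counts over all libraries. It was called higher (log2 fold change 0.93 ± 0.30, SE, edgeR adjusted p = 0.014), a call that was lost without siCTL replicate 2 (edgeR adjusted p = 0.091) and with DESeq2 (DESeq2 adjusted p = 0.070). RAB3A was at 0.09 on the log2 scale and not called. RAB8A and RAB10, abundant RABs of surface delivery, were at 0.13 and -0.069 (edgeR adjusted p = 0.067 and 0.36). RAB8A passed the threshold in 3 of 15 alternatives. ENSG00000269243 lies opposite 1960 of the 5191 exon bases of RAB8A, at a log2 fold change of 0.13 and not called, so that RAB8A values and ratios may hold its reads. RAB13, of tight junction traffic (682 of 2751 exon bases are shared with ENSG00000285641), RAB26, of secretory granules, and RAB37, of regulated secretion, ranged from -0.16 to 0.40 and did not pass the test.

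The remaining 6 genes, of the cilium, of ubiquitin ligases or with little known function, held 2 rises (33.3%) and no fall (median log2 fold change 0.19). Over all tested genes 16.5% were higher and 17.9% lower. RAB42 (ENSG00000188060; GRCh38 chromosome 1, 28592200 to 28595443, plus strand), one of the least studied RABs, was at 1.55, 1.51 and 1.48 CPM after control siRNA and 3.72, 3.54, 3.91 and 4.72 CPM after DEPDC1 siRNA. This was the largest rise of a RAB gene, from 1.51 ± 0.0350 to 3.97 ± 0.524 CPM (log2 fold change 1.38 ± 0.21, SE, edgeR adjusted p = 2.0e-06), at a low level of 230 counts in total over the 7 libraries. RAB40B, which joins a cullin ubiquitin ligase through its SOCS box and is known for the secretion of matrix proteases in breast cancer cells, was at 4.86, 4.92 and 4.43 CPM after control siRNA and 7.04, 7.37, 6.90 and 7.84 CPM after DEPDC1 siRNA. It rose 1.54-fold with a tight spread in both groups (log2 fold change 0.62 ± 0.14, SE, edgeR adjusted p = 5.0e-04). RAB40C and RAB40A were at 0.19 and -0.14, RAB28, a ciliary RAB, at 0.20, and RAB23, a ciliary brake on Hedgehog signalling, at 0.091 on the log2 scale, none of them past the threshold, which RAB28 passed in 5 of 15 alternatives. BAG2 overlaps RAB23 over 2842 exon bases on the opposite strand and fell (log2 fold change -0.86), so the RAB23 value is uncertain without a strand setting.

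**Figure D2:**
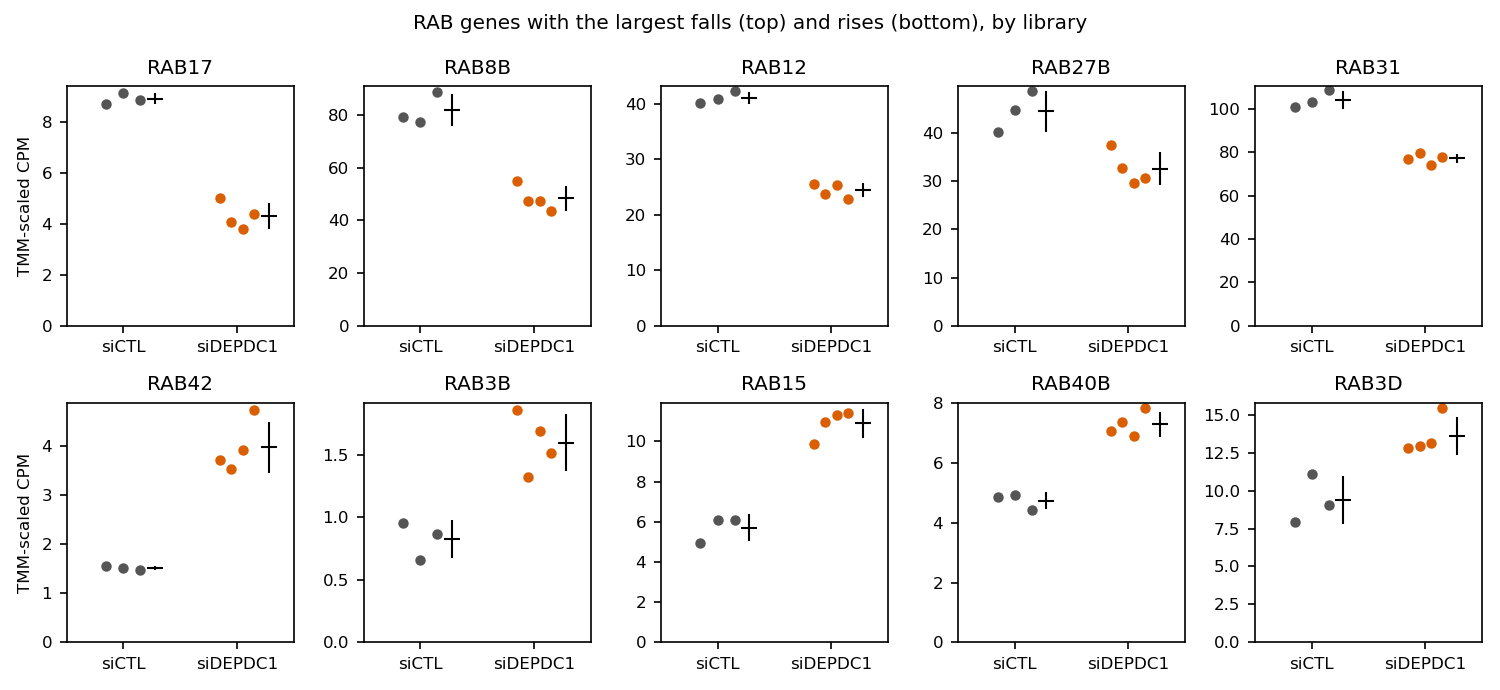
TMM-scaled CPM (vertical axis from 0) in each library for the 5 RAB genes with the largest falls (top) and the 5 with the largest rises (bottom); points are libraries, and the bar beside them is mean ± SD. In all 10 genes the siCTL (n = 3) and siDEPDC1 (n = 4) libraries do not overlap, with RAB27B the closest as a ratio at 37.4 against 40.1 CPM.

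The 12 RAB genes under the count filter were RAB19, RAB33A, RAB39A, RAB39B, RAB41, RAB6C and RAB6D of the Golgi group, RAB4B and RAB25 of the recycling group, RAB7B, and RAB3C and RAB44. They held 0 to 66 counts over the 7 libraries and at most 1.18 CPM in any library. RAB39B had none, which allows up to 3 counts over the 7 libraries by counting error. RAB7B, the RAB7A relative of antigen-presenting cells, and RAB3C, a neuronal RAB3, had 11 counts each. RAB6C was at 0.0869 to 0.263 CPM in siCTL and 0.293 to 0.781 CPM in siDEPDC1 over 26 counts in all, and RAB3C at 0 to 0.0656 and 0.147 to 0.521 CPM, both without overlap. None of the 12 entered the test, and these counts are too few to read a difference from.

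Levels were compared between genes as CPM per kilobase of annotated exon. In siCTL, RAB1B led at 137 ± 3.59 CPM per kb (SD, n = 3), followed by RAB7A at 67.7 ± 1.84. RAB11B, RAB10 and RAB1A came next at 42.9 ± 2.62, 42.8 ± 1.78 and 40.8 ± 1.99, of which RAB11B and RAB10 were within their spread of each other. RAB8A, RAB34, RAB14 and RAB6A followed at 37.1 ± 0.467, 35.4 ± 2.26, 30.6 ± 1.82 and 26.9 ± 0.831 CPM per kb, of which RAB8A and RAB34 were within their spread of each other. In siDEPDC1, RAB1B was at 176 ± 13.4 and RAB7A at 78.7 ± 3.25 CPM per kb (SD, n = 4), so that the order of these 2 genes was the same. The strongest relative changes sat lower on this scale, with RAB42 at 0.687 ± 0.0159, RAB3B at 0.0644 ± 0.0121, RAB15 at 1.14 ± 0.133, RAB40B at 0.765 ± 0.0433 and RAB17 at 1.86 ± 0.0454 CPM per kb in siCTL. RAB8B and RAB12 were exceptions among the larger falls, at 15.7 ± 1.17 and 16.6 ± 0.441 CPM per kb.

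Split at a mean of 20 CPM over all libraries, the 29 more abundant RAB genes held 6 falls and 10 rises, and the 22 less abundant ones 1 fall and 6 rises. Median absolute log2 fold changes were 0.20 and 0.20, while median standard errors were 0.062 and 0.14, so that small changes could be called mainly in the first set.

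**Figure D3:**
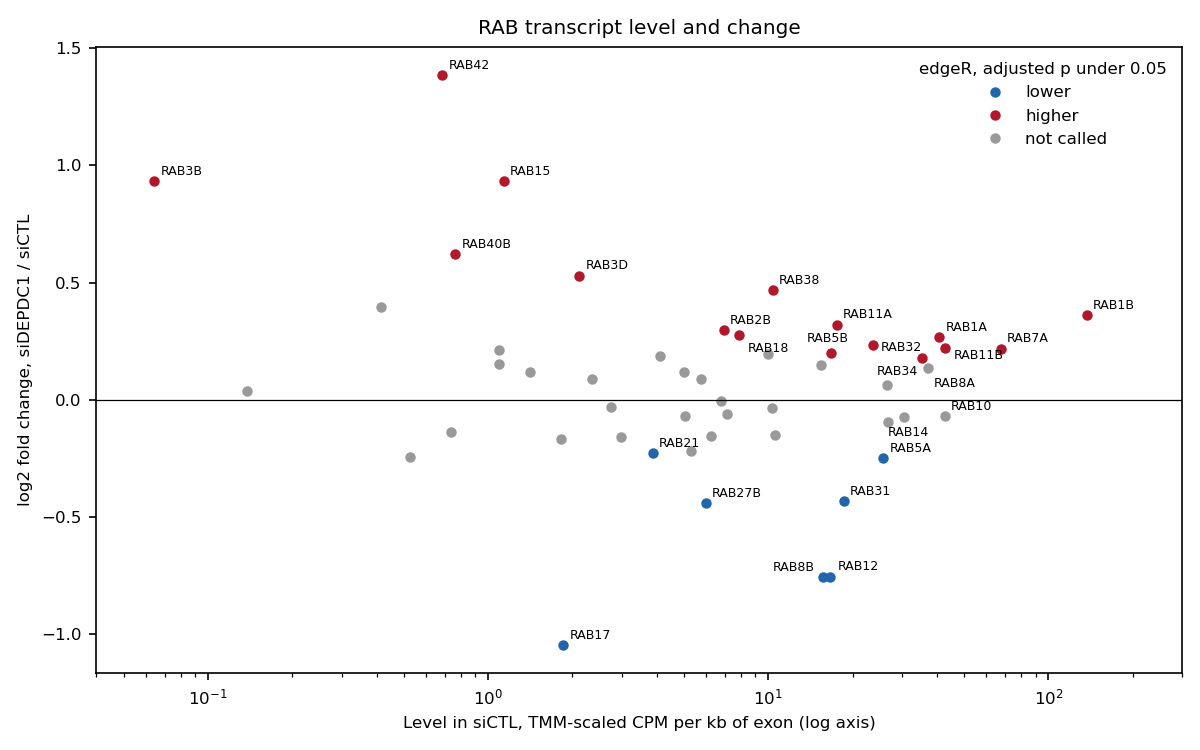
Log2 fold change of the 51 tested RAB genes (vertical axis) against their level in siCTL in TMM-scaled CPM per kb of exon (horizontal axis, log scale), coloured by the edgeR call. RAB1B and RAB7A are highest and rose slightly, whereas RAB42 and RAB17, which changed most, lie at 0.687 and 1.86 CPM per kb.

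Related RABs often share effectors, and the ratio of 2 transcripts within a library does not depend on how libraries are scaled. The log2 ratio of counts was compared in 17 pairs of related genes that were both tested. RAB8A over RAB8B moved most, from 1.28, 1.30, 1.14 in the siCTL libraries to 1.80, 2.14, 2.26, 2.33 in the siDEPDC1 libraries. The means were 1.24 ± 0.088 in siCTL and 2.13 ± 0.23 in siDEPDC1 (SD), a 1.86-fold shift (exact two-sided permutation p = 0.0286, the smallest that 35 splits allow). Per kilobase, RAB8B went from 29.7 ± 1.28% to 18.6 ± 2.53% of the RAB8 transcripts. RAB3A over RAB3B fell from 2.33 to 1.48, RAB5A over RAB5B from -0.18 to -0.62 and RAB9A over RAB9B from 1.45 to 1.05 (a difference of -0.40, or -0.27 without siCTL replicate 2), all with groups that did not overlap. RAB40B over RAB40C went from -1.85 to -1.43 and RAB27A over RAB27B from -0.65 to -0.28. These 6 pairs reached the smallest exact p, but adjusted over the 17 pairs it was 0.0810, so none passed 0.05 by this permutation test. With 35 splits, a pair could pass only if more of the 17 pairs than these 6 reached the smallest p together. The lack of calls therefore does not show that a given ratio was unchanged.

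In 4 pairs both genes rose. In all of these except RAB32 and RAB38 the ratio moved by less than the larger SD. RAB1A over RAB1B was at -1.03 ± 0.11 in siCTL and -1.12 ± 0.18 in siDEPDC1 (exact permutation p = 0.457) and RAB11A over RAB11B at -0.084 ± 0.13 in siCTL and 0.0096 ± 0.15 in siDEPDC1 (exact permutation p = 0.40). RAB32 over RAB38 went from 0.92 ± 0.069 to 0.68 ± 0.16 with groups that did not overlap (exact permutation p = 0.0571), and RAB3B over RAB3D from -3.44 ± 0.52 to -3.06 ± 0.27 with groups that did (exact permutation p = 0.229). In RAB27, the RAB27B share per kilobase went from 54.2 ± 0.940% to 47.8 ± 1.19%. In RAB22A and RAB31, RAB31 went from 63.8 ± 0.215% to 59.2 ± 1.51% of the pair's sum. Coding sequences of the 17 pairs were 69.2 to 80.4% identical, with longest shared runs of 14 to 55 bases, the longest in RAB40B and RAB40C.

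**Figure D4:**
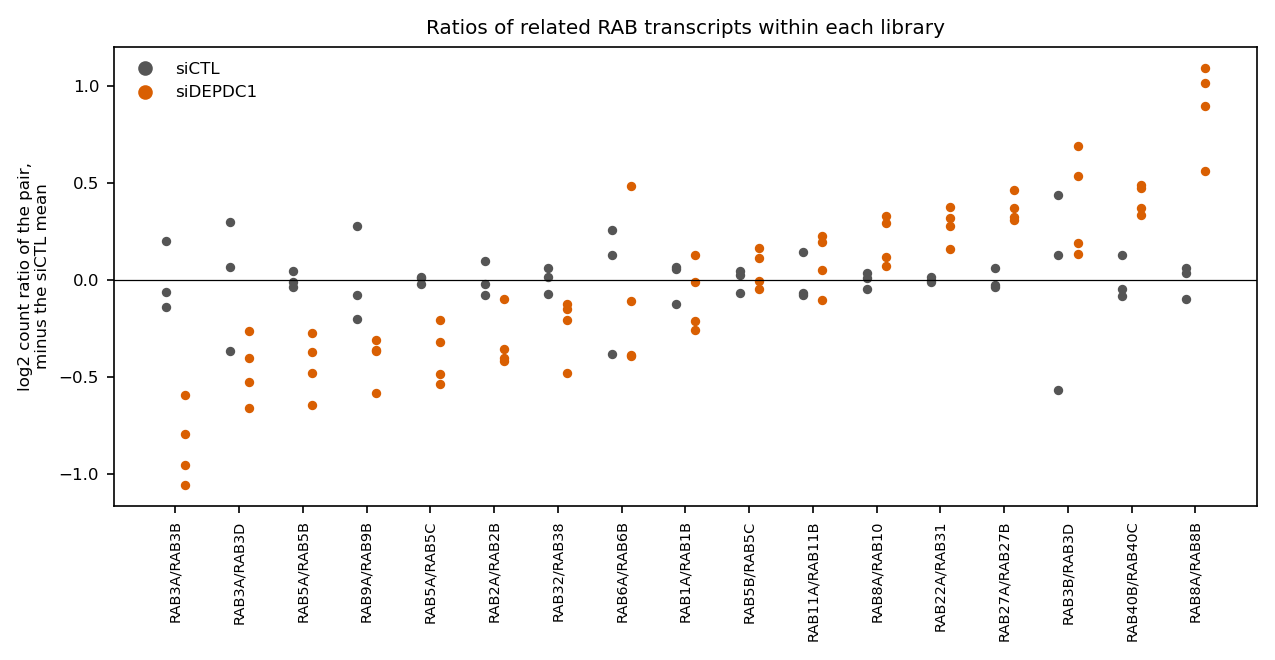
Log2 count ratio of each of 17 pairs of related RAB genes in each library, minus the siCTL mean of the pair (vertical axis); grey points are siCTL (n = 3) and orange points siDEPDC1 (n = 4) libraries. RAB8A over RAB8B lies highest, shifted by 0.89, and RAB3A over RAB3B lowest, shifted by -0.85.

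The sequence word GATAACT was in the 3' UTR of 514 of 2505 searched genes that fell (20.5%) and of 79 of 2309 that rose (3.42%). It was picked on these data, so its counts are a description and no independent evidence. In 1 annotated transcript per gene (GENCODE 29, GRCh38), read on the transcript strand, it was present in the 3' UTR of 7.71% of 12307 searched tested genes and of 3 of the 51 tested RAB genes (5.88%). None of the 7 RAB genes that fell and none of the 16 that rose carried it there, nor did another annotated coding isoform of the 7 falls. The 3 carriers were RAB9A, RAB22A and RAB6A, at -0.22, -0.15 and -0.095 on the log2 scale, each below 0 and none called (edgeR adjusted p = 0.12, 0.055 and 0.24). The untested intronless copies RAB6C and RAB6D carry it as well. RAB12, which fell, has the word in its coding sequence, in exon 5 of 6, and among the tested RAB genes only RAB2A also has a coding copy, with a log2 fold change of -0.033. The sites, except the coding copy of RAB2A, follow with 11 bases on each side, 5′ to 3′ on the transcript strand, with the word in capitals. They show how the RAB12 coding copy and the UTR copies are embedded and how alike the RAB6 copies are.
RAB12: caagtgccaagGATAACTtcaatgtggac
RAB9A: aatgtgcatttGATAACTgatgtaataat
RAB22A: tctgattctatGATAACTaattaaccatc
RAB6A: catattccagtGATAACTttaaaaattag
RAB6C: catattccggtGATAACTttaaaaattag
RAB6D: cgtattccagtGATAACTttaaaaattag
The RAB12 window is at chromosome 18, 8636290 to 8636318, plus strand. The windows in 3' UTRs are at chromosome X, 13710130 to 13710158, plus strand (RAB9A), at chromosome 20, 58362620 to 58362648, plus strand (RAB22A) and at chromosome 11, 73677644 to 73677672, minus strand (RAB6A). Those of the copies are at chromosome 2, 129980956 to 129980984, plus strand (RAB6C) and at chromosome 2, 131362852 to 131362880, minus strand (RAB6D). The word starts 789, 2928 and 237 bases into the 3' UTRs of RAB9A, RAB22A and RAB6A, all in the last exon.

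RAB genes had long 3' UTRs, with a median of 2176 bases in the 51 tested genes and 1147 bases in all searched genes. The median was 3226 bases among the 7 falls and 1907 bases among the 16 rises. The shorter words GATAAC or ATAACT, which make up GATAACT and so overlap with it, were in the 3' UTR of 35.5% of searched genes, of 20 of the 51 tested RAB genes, of 4 of the 7 falls (RAB8B, RAB12, RAB21 and RAB27B) and of 3 of the 16 rises (RAB3B, RAB18 and RAB40B). The shares of these shorter words among all genes that fell or rose are not given here. They are parts of a word picked on these data, so their counts are a description only. Longer 3' UTRs hold more words of any kind, and the part of length in these counts was not tested.

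Regulators and effectors of RAB proteins were read from 9 lists of 164 genes. Of 154 tested, 35 were lower and 24 higher (22.7% and 15.6%), with a median log2 fold change of -0.045, where all tested genes had 17.9% lower and 16.5% higher and a median of 0.00094. With 8 to 34 tested genes in each of the 9 lists, no list was tested against this background. The genes that load RABs onto membranes had 2 falls and no rise of 8 (median 0.032). CHML, a RAB escort protein, fell 1.32-fold from 85.2 ± 4.64 to 64.2 ± 10.7 CPM and RABGGTB, the catalytic subunit of the RAB prenyl transferase, 1.26-fold from 66.4 ± 3.23 to 52.6 ± 5.91 CPM (edgeR adjusted p = 9.5e-04 and 4.3e-04).

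Among exchange factors, 8 fell and 5 rose of 34 tested (median 0.069). DENND6A, the exchange factor of RAB14, fell 1.90-fold from 67.8 ± 4.50 to 35.6 ± 1.60 CPM (log2 fold change -0.93 ± 0.069, SE, edgeR adjusted p = 4.6e-13). DENND1B, an exchange factor of RAB35, fell 1.44-fold. DENND5B, of RAB39, DENND2C, of RAB9, and RIN3, of RAB5 and RAB31, rose 1.34-fold, 1.31-fold and 1.27-fold. Thus RAB31 fell and its exchange factor gene RIN3 rose. TRAPP, the multisubunit exchange factor of RAB1, had 3 falls and 3 rises of 13 (median -0.081), with TRAPPC12, TRAPPC11 and TRAPPC10 at -0.35, -0.32 and -0.23 and TRAPPC6B, TRAPPC2 and TRAPPC1 at 0.38, 0.35 and 0.25 on the log2 scale.

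Among GAPs, 6 fell and 6 rose of 30 tested (median -0.062). TBC1D4, the GAP of RAB8A and RAB10 in insulin-driven transport, fell 1.35-fold from 97.3 ± 5.77 to 72.0 ± 1.49 CPM, SGSM2, a RAB32 and RAB38 GAP, 1.25-fold and TBC1D5, a RAB7 GAP, 1.22-fold. TBC1D8B, a RAB11 GAP, rose 1.65-fold from 19.3 ± 1.86 to 31.6 ± 2.08 CPM (log2 fold change 0.72 ± 0.084, SE, edgeR adjusted p = 1.8e-08), TBC1D13, a RAB35 GAP, 1.31-fold and EVI5L 1.26-fold.

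The effector lists held 10 to 23 tested genes each. Their counts were not tested against the 17.9% lower and 16.5% higher of all tested genes. Of 12 Golgi tethers and effectors 4 fell and 1 rose (median -0.10). BICD2 and BICD1, dynein adaptors that bind RAB6, fell 1.94-fold (from 99.2 ± 7.84 to 51.0 ± 0.964 CPM) and 1.38-fold, the phosphatase gene INPP5B 1.25-fold, while GOLGA2, a RAB1 effector on the cis-Golgi, rose 1.23-fold from 115 ± 3.72 to 141 ± 8.80 CPM. Of 10 early endosome effectors 3 fell and none rose (median -0.075): RBSN, a RAB4 and RAB5 effector, 1.39-fold, and the lipid kinase subunits PIK3R4 and PIK3C3, 1.29-fold and 1.15-fold. Recycling effectors had 4 rises and 1 fall of 11 (median 0.15), with SH3TC2, a RAB11 effector, up 1.23-fold, EHD1, a membrane-shaping ATPase, 1.23-fold, RAB11FIP1, another RAB11 effector, 1.19-fold and ACAP2, a RAB35 effector, down 1.17-fold.

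Late endosome effectors and the HOPS tether had 4 falls and 1 rise of 13 (median -0.11). FYCO1, which links RAB7 to kinesin, fell 1.90-fold from 59.1 ± 0.358 to 31.1 ± 1.37 CPM (log2 fold change -0.93 ± 0.068, SE, edgeR adjusted p = 3.6e-13), RUBCN, a RAB7-binding brake on autophagy, 1.39-fold and OSBPL1A, a RAB7-binding sterol sensor, 1.24-fold, while the HOPS subunit VPS33A rose 1.25-fold. Secretory effectors and the exocyst had 4 falls and 4 rises of 23 (median -0.029). The exocyst subunits EXOC1 and EXOC4 fell 1.58-fold and 1.53-fold and MICALL2, which binds RAB8 and RAB13, 1.36-fold. EXPH5, a RAB27 effector, rose 1.77-fold from 6.35 ± 0.785 to 11.3 ± 0.740 CPM, UNC13D, another, 1.14-fold and EHBP1, a RAB8 and RAB10 effector, 1.12-fold. The word GATAACT, picked on these data, is in the 3' UTR of 11 of 152 searched genes of the lists, where 7.71% of all searched genes carry it. Carriers include 7 of 34 searched falls (BICD2, CHML, EXOC1, FYCO1, OSBPL1A, PIK3C3 and SBF2) and none of the 24 rises, beside 20.5% of all genes that fell and 3.42% of all that rose.

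**Figure D5:**
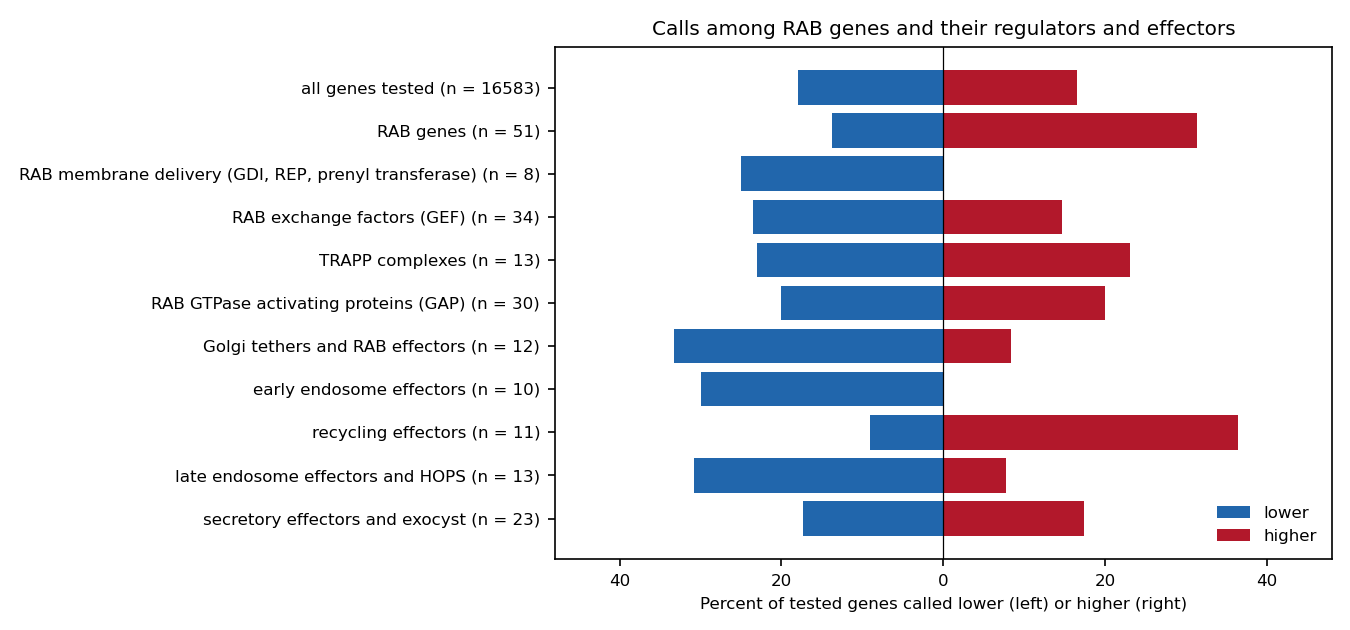
Percent of tested genes called lower (bars to the left) or higher (bars to the right) by edgeR among all tested genes, the RAB genes and 9 lists of RAB regulators and effectors, with the number tested beside each name. The RAB genes show 31.4% higher, beside 16.5% of all tested genes. No called rise was found among the early endosome effectors (3 called falls of 10) or the membrane delivery genes (2 of 8, median log2 fold change 0.032).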

How the data were processed

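RNA of 7 libraries was sequenced in pairs of reads. The table deposited by the authors holds whole-number counts for each Ensembl identifier, without scaling. The submitters' processing notes name GRCh38, FastQC, STAR 2.7.9a and DESeq2, with neither role nor order; the sources used here do not give the counter, annotation release or strand setting. Of 60675 identifiers, 58444 were found in GENCODE 29, the source of gene types, coordinates, exon lengths and sequences, which may not be the release used for counting.

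Genes passing edgeR's filterByExpr by group (16583) were tested in R 4.3.3 with edgeR 4.0.16 (TMM factors, robust glmQLFit, glmQLFTest, two-sided, no covariate); p-values were adjusted by Benjamini-Hochberg over all of them, with 0.05 as threshold. Levels are TMM-scaled CPM, mean ± SD; the SE of a log2 fold change comes from the F statistic. The fit was tested on simulated data. Pair ratios used counts plus 0.5 and an exact permutation test. Intervals and floors cover counting error only. Replicate pairs of a group differed by more than sampling noise (chi-square per gene 1.68 to 4.68), so all libraries were kept as separate samples.

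The members, the trafficking steps, the pairs and the 9 lists were chosen with earlier results of these data known. Named are all called RAB genes, the other RAB genes by range, per-library values of the 5 largest falls and rises, and up to 3 largest falls and rises of each list; some genes of the lists are not reported here. Alternatives were DESeq2 1.42.0 or its size factors, limma-voom (limma 3.58.1), library size alone, other count filters, a replicate block and leaving out each library.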

Additional observations from a re-analysis of the deposited data

Results flagged for a closer look

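Each of 68 sets of 4 siDEPDC1 values (51 RAB genes and 17 pair ratios) was searched for 1 library standing apart, measured as the distance from its nearest library divided by the range of all 4 (Dixon's test at the 95% level). Chance marks about 5% of such sets, and 2 were marked. In RAB34, siDEPDC1 replicate 1 was at 119.6 CPM and the others at 137 to 139 CPM, a gap share of 0.896. In RAB3D, siDEPDC1 replicate 4 was at 15.4 CPM and the others at 12.8 to 13.2 CPM, a gap share of 0.869.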

How the results depend on the processing

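The counts of 7 falls and 16 rises among RAB genes, and the fall of DEPDC1, kept their direction and size class under all alternatives run, the counts staying within 1.5 times. With each library left out in turn, 6 to 8 RAB genes fell and 14 to 18 rose. Falls numbered 6 or 7 and rises 15 to 19 under the other alternatives, the most with library size alone. No called RAB gene changed sign in any alternative. RAB34 lost its call in 5 of 15 alternatives (leaving out siDEPDC1 replicate 4 and fitting the 6 same-numbered libraries without a block are the same fit), RAB21 and RAB32 in 3 each, RAB5B and RAB3B in 2 each, and the other 18 called genes in none in which they were tested. RAB42 and RAB3B were not tested under the filter of 50 counts, which keeps fewer genes. Beside values given with the genes, RAB34 missed the threshold with no count filter (edgeR adjusted p = 0.055) and without siDEPDC1 replicate 2 or 3 (0.086 and 0.067). Calls were also gained: RAB28 rose with library size alone, the filter of 50 counts, the replicate block and without siDEPDC1 replicate 4; RAB8A with library size alone, the filter of 50 counts and without siDEPDC1 replicate 1; RAB5C with library size alone and without siDEPDC1 replicate 1, which also made RAB22A lower.

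Same-numbered libraries did not deviate together (correlations -0.085, -0.0059 and -0.058), so the numbers were not taken as pairs. With a replicate block on numbers 1 to 3, 6 RAB genes fell and 15 rose, against 6 and 17 in the same 6 libraries without it; RAB21, RAB34 and RAB5B missed the threshold with the block (edgeR adjusted p = 0.10, 0.078 and 0.051). No pair ratio was called with 0.5 or 2 added to counts, and the limit set by the smallest exact p holds for both. Leaving out a library, the smallest exact p is 0.0667 or 0.10, so the pair test could not pass; the RAB8A over RAB8B difference was then 0.83 to 1.00.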

Other observations

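All 3 RAB genes on chromosome 18, RAB12, RAB27B and RAB31, fell, and they make up 3 of the 7 falls. Of 266 tested genes on that chromosome 24.4% were lower and 8.65% higher, with a median log2 fold change of -0.039. On chromosome 19, where 6.47% of 1175 tested genes were lower and 24.1% higher, 2 of 4 tested RAB genes rose (RAB3D and RAB11B) and none fell. This grouping by chromosome was looked at after the values were seen and was not tested.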
